A study of Mus musculus with 18 samples.

Results

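The genes described here were Cyp4a10, Cyp4a14, Cyp4a31 and Cyp4a32, 4 mouse genes for cytochrome P450 enzymes of the Cyp4a subfamily that act on fatty acids. They were chosen by name, and all 4 were found among the 54532 genes listed in the 2 expression tables of the study. RNA-seq was performed on livers of 18 wild-type (WT) male C57BL/6J mice, 1 library per mouse, to ask how a lack of vitamin B2 (riboflavin) changed gene expression in fasted liver with and without fenofibrate. Diets began at 4 wk of age. The Ctrl group (n = 5) ate control diet and the B2D group (n = 5) ate a B2-deficient diet with no added riboflavin, each for 1 month. The Ctrl+FF and B2D+FF groups (n = 4 each) ate the same diets for 9 wk and were gavaged daily with fenofibrate (FF), a drug that activates the nuclear receptor PPARα, during weeks 7 to 9. All mice were fasted overnight, and the FF groups received a last dose 2 hr before measurements at the end of the experiment. No FF group shared its diet time, age or experiment with a group without FF, and no gavage is described for the groups without FF. Fenofibrate, gavage, diet time, age and experiment therefore cannot be told apart.

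Most fatty acids are broken down from their carboxyl end by beta-oxidation. Cyp4a enzymes sit in the endoplasmic reticulum, the source of microsomes, and hydroxylate the other end of the chain, the omega carbon. Alcohol and aldehyde dehydrogenases then turn the product into a dicarboxylic acid, which peroxisomes shorten. Electrons for the hydroxylation come from NADPH through P450 oxidoreductase (Por), a flavoprotein that carries FAD and FMN, both made from riboflavin. In rodent liver Cyp4a10 and Cyp4a14 are textbook PPARα targets that rise with fasting and with fibrates.

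The 4 genes lie in 1 cluster on chromosome 4 (GRCm38 coordinates from the tables). Cyp4a14 (ENSMUSG00000028715) occupies chr4:115486200-115496142 on the minus strand. The other three follow on the plus strand, with Cyp4a10 (ENSMUSG00000066072) at chr4:115518264-115533649, Cyp4a31 (ENSMUSG00000028712) at chr4:115563649-115579015 and Cyp4a32 (ENSMUSG00000063929) at chr4:115600969-115621602. The coding sequence of Cyp4a10 differed from that of Cyp4a31 at 52 and from that of Cyp4a32 at 43 of 1530 bases (96.6% and 97.19% identity, GENCODE models on GRCm38). Cyp4a14 was more distant, with 76.13% identity to Cyp4a10. The coding exon bases around the codon of the cysteine that holds the haem iron, a signature of all P450 enzymes, show how alike the copies are. Each stretch of 75 coding bases below is joined across an intron and written 5′ to 3′ on the coding strand. Capitals mark bases that differ from Cyp4a10.
Cyp4a10, chr4:115529487-115532573, plus strand: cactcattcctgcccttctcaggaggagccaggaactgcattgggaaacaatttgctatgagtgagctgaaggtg
Cyp4a31, chr4:115574935-115577978, plus strand: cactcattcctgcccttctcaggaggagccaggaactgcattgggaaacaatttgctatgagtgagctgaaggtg
Cyp4a32, chr4:115614865-115621476, plus strand: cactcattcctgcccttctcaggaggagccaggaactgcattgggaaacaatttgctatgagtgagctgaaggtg
Cyp4a14, chr4:115487269-115489820, minus strand: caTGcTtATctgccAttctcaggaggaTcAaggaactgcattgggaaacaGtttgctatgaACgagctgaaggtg
The stretch was the same in Cyp4a10, Cyp4a31 and Cyp4a32 and differed at 11 bases in Cyp4a14.

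The copies are told apart by stretches such as coding bases 187 to 261, the 75 bases where Cyp4a31 and Cyp4a32 together differed most from Cyp4a10, again joined across an intron with capitals at differing bases.
Cyp4a10, chr4:115518508-115519701, plus strand: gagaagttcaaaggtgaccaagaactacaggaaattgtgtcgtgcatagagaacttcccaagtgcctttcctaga
Cyp4a31, chr4:115563903-115565081, plus strand: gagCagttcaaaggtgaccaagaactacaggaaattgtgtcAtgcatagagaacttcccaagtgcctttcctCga
Cyp4a32, chr4:115601161-115602331, plus strand: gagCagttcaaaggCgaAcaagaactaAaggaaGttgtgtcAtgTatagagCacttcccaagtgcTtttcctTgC
Cyp4a31 differed at 3 of these bases and Cyp4a32 at 11. A stretch of 150 bases, the length of 1 read, was found unchanged in another transcript for 4.34% of such windows of Cyp4a10, 4.19% of Cyp4a31 and 7.97% of Cyp4a32, and for 0% of Cyp4a14. Reads from those windows could be given to the wrong copy or dropped, so the copies are reported singly and as a sum. The Cyp4a32 transcript model ends at its stop codon, whereas that of Cyp4a31 carries 911 bases of 3′ UTR and that of Cyp4a10 carries 521 (GENCODE M21), and the tables give Cyp4a32 a length of 1536 bases against 2509 for Cyp4a31. Reads from any UTR of Cyp4a32 would lie outside such a model.

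**Figure D1:**
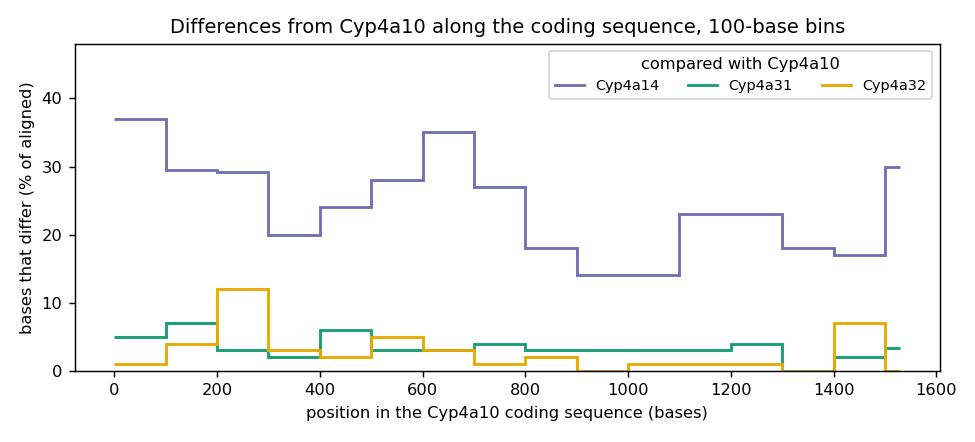
Share of aligned coding bases that differ from Cyp4a10 (y axis, percent) along the Cyp4a10 coding sequence in 100-base bins (x axis, bases), 1 line for each of Cyp4a14, Cyp4a31 and Cyp4a32. Cyp4a31 and Cyp4a32 stay low along the whole sequence, with 12 of 100 bases in the bin of bases 201 to 300 as the highest for Cyp4a32, while Cyp4a14 differs at 14 to 37 bases in each full bin without gaps.

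Between 15320729 and 21898502 reads were counted on genes per library. Marker genes fitted the liver label, with 7 of 7 hepatocyte genes detected in every group and a summed level of 33082 to 47737 FPKM without FF and 19427 to 25204 FPKM with FF. FPKM is a count of sequenced fragments scaled to an estimated library size and divided by gene length. It puts all genes on 1 scale, so levels of different genes can be compared. Markers of other cells were far lower, the highest being Kupffer cell genes at 38.0 to 107 FPKM in sum, and kidney tubule genes, a site of Cyp4a expression outside the liver, reached at most 1.51 FPKM in sum. In bulk liver, fewer cells of a type and less RNA per cell cannot be told apart. The tables were normalized separately by the authors, so groups with and without FF are set side by side without a test.

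The 4 genes fell into 2 abundant and 2 minor transcripts in all 18 livers. Cyp4a14 ranked between 8th and 25th of all genes by FPKM and Cyp4a10 between 15th and 31st, whereas Cyp4a31 and Cyp4a32 ranked between 103rd and 963rd. Summed reads of the 4 genes were 1.39% of all counted reads in Ctrl on average, 1.98% in B2D, 2.54% in Ctrl+FF and 2.84% in B2D+FF. Cyp4a14 made up 57.1% of the summed FPKM in Ctrl and Cyp4a10 made up 40.4%, which left 1.17% to Cyp4a31 and 1.31% to Cyp4a32.

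**Figure D2:**
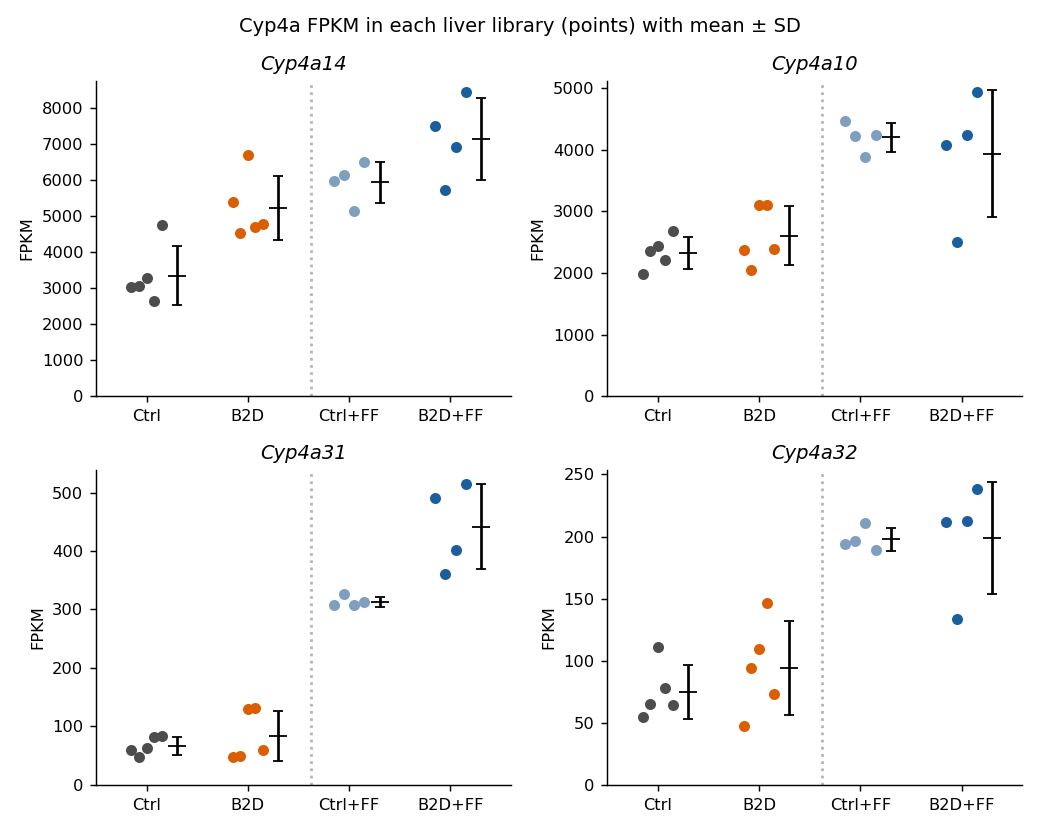
FPKM of Cyp4a14, Cyp4a10, Cyp4a31 and Cyp4a32 (y axes, each from 0) in every liver library (points), with the mean and SD of each group (bars), for Ctrl and B2D (n = 5 each) and Ctrl+FF and B2D+FF (n = 4 each). A dotted line parts the separately normalized tables. All 4 Cyp4a31 values of B2D+FF lie above those of Ctrl+FF. Every Ctrl+FF value lies above every Ctrl value of the same gene, and the share of all genes with such a gap was not counted.

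Without fenofibrate, Cyp4a14 showed the largest diet difference of the 4 genes, although it missed the threshold. Its level was 3029.7, 3057, 3274, 2635 and 4747 FPKM in Ctrl mice 1 to 5 (3349 ± 815, SD, n = 5). In B2D mice 1 to 5 it was 5397, 4522, 6705, 4706 and 4770.1 FPKM (5220.1 ± 893, SD, n = 5). The groups overlapped through 1 control, Ctrl mouse 5, and 3 of 5 B2D livers lay above all controls. The difference was 0.65 (SE 0.169, 95% interval 0.29 to 1.02) on the log2(FPKM + 1) scale, with an adjusted p of 0.0659 by limma with Benjamini-Hochberg adjustment over the 11574 genes tested. The unadjusted limma p was 0.00224. Without Ctrl mouse 5 the difference was 0.79 and passed, with an adjusted p of 0.0186 (limma), and 5 other ways of fitting or scaling moved it past the threshold too. The adjusted p of Cyp4a14 ran from 0.0175 to 0.322 over the 9 alternatives that kept all libraries, the highest without a filter on low values.

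Cyp4a10, the other abundant transcript, differed less. Its level was 1979, 2359, 2440.2, 2211 and 2675 FPKM in Ctrl mice 1 to 5 (2333 ± 260, SD, n = 5) and 2374, 2048, 3111, 3101 and 2387 FPKM in B2D mice 1 to 5 (2604 ± 478, SD, n = 5). The groups overlapped, with 2 of 5 B2D livers, mice 3 and 4, above all controls. The log2 difference was 0.15 (SE 0.144, 95% interval -0.17 to 0.46; adjusted p = 0.618, limma), and it ran from 0.077 without B2D mouse 3 to 0.23 without B2D mouse 2.

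The minor copies, whose products are less studied, varied most between mice within the B2D group. Cyp4a31 read 60.6, 47.2, 63.5, 81.1 and 84.4 FPKM in Ctrl mice 1 to 5 (67.4 ± 15.4, SD, n = 5) and 47.2, 50.04, 129.7, 131 and 59.6 FPKM in B2D mice 1 to 5 (83.5 ± 43.0, SD, n = 5). B2D mice 3 and 4, the same livers that were high for Cyp4a10, stood above the rest, and the coefficient of variation was 51.5% in B2D and 22.9% in Ctrl. The log2 difference of Cyp4a31 was 0.19 (SE 0.303, 95% interval -0.47 to 0.85; adjusted p = 0.779, limma). Leaving out 1 library at a time moved it between -0.010 and 0.35. Cyp4a32 read 54.7, 65.4, 111.1, 78.0 and 64.4 FPKM in Ctrl (74.7 ± 22.0, SD, n = 5) and 47.4, 93.9, 109.2, 146.8 and 73.3 FPKM in B2D (94.1 ± 37.5, SD, n = 5). Its groups overlapped, and the log2 difference was 0.27 (SE 0.274, 95% interval -0.32 to 0.87; adjusted p = 0.626, limma). It was 0.092 without B2D mouse 4 and 0.49 without B2D mouse 1, the lowest and highest values with 1 library left out.

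Of the 4 genes, 0 passed the limma threshold in this comparison, beside 2.7% of all genes tested, and Cyp4a14 alone had an unadjusted p under 0.05, beside 18.4% of all genes. All 4 log2 differences were positive, with a median of 0.23 against -0.0013 over all genes tested. The summed FPKM of the 4 genes was compared as well. Cyp4a14, which shared 0% of its windows, made up 57.1% of the sum in Ctrl and 65.3% in B2D. The difference of this sum is therefore not separate from that of Cyp4a14. The summed FPKM was 5124, 5528, 5889, 5005 and 7571 in Ctrl mice 1 to 5 (5824 ± 1037, SD, n = 5) and 7866, 6714, 10055, 8084 and 7289.9 in B2D mice 1 to 5 (8002 ± 1265, SD, n = 5). Ctrl mouse 5 was again the single control inside the B2D range. The log2 difference of the sum was 0.46 (two-sided exact permutation test, p = 0.0238, or 0.0714 adjusted over the 10 such tests of sums and ratios). With totals of counted reads in place of the authors' scaling, every B2D liver lay above every Ctrl liver and the exact permutation p was 0.00794, the smallest that 5 against 5 can give. Over the 4 alternative scalings or pseudocounts the exact permutation p ran from 0.00794 to 0.0317. On the authors' scale 3 of 5 B2D sums lay above all Ctrl sums. On that scale 2.08% of all single genes were higher in B2D with no overlap, and the share was not counted for totals of counted reads. The sum of the 3 near-identical copies, between which reads can move, differed by 0.15 (exact permutation p = 0.302).

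The balance between Cyp4a14 and the copies leaned toward Cyp4a14 on the deficient diet in both experiments, by differences that did not pass after adjustment. The ratio of Cyp4a14 FPKM to the summed FPKM of Cyp4a10, Cyp4a31 and Cyp4a32 does not depend on library scaling. It was 1.45, 1.24, 1.25, 1.11 and 1.68 in Ctrl mice 1 to 5 and 2.19, 2.06, 2.00, 1.39 and 1.89 in B2D mice 1 to 5. Only B2D mouse 4 fell within the Ctrl range. The log2 ratio was higher by 0.50 in B2D (exact permutation p = 0.0238, adjusted p = 0.0714). With fenofibrate the ratio was 1.20, 1.29, 1.16 and 1.37 in Ctrl+FF mice 1 to 4 and 1.57, 1.91, 1.42 and 1.49 in B2D+FF mice 1 to 4. These groups did not overlap, and the log2 ratio was higher by 0.34 (exact permutation p = 0.0286, the smallest that 4 against 4 can give, adjusted p = 0.0714). How many ratios between other genes separate the groups in this way was not counted, so this gap has no background beside it.

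**Figure D3:**
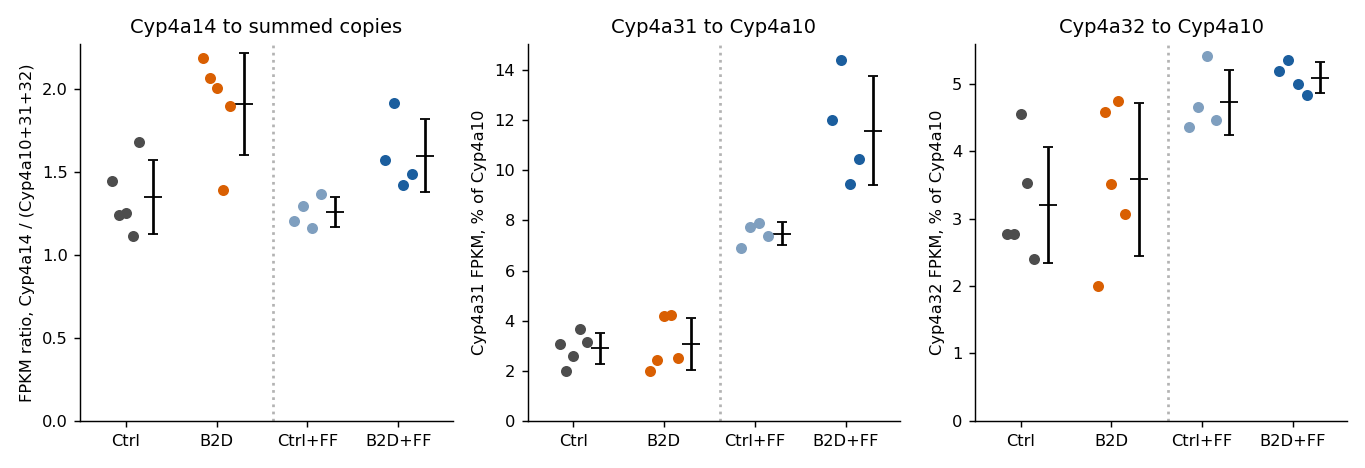
FPKM ratios within each liver library (points) with the mean and SD of each group (bars) for Ctrl, B2D, Ctrl+FF and B2D+FF on the x axis; the y axes, each from 0, give Cyp4a14 over the sum of Cyp4a10, Cyp4a31 and Cyp4a32 (left), Cyp4a31 in percent of Cyp4a10 (middle) and Cyp4a32 in percent of Cyp4a10 (right). B2D+FF values lie above all Ctrl+FF values in the left and middle panels, and a dotted line parts the separately normalized tables. The share of other gene ratios with such a gap was not counted.

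With fenofibrate, Cyp4a31 was the gene whose diet groups did not overlap. Its level was 307.2, 326, 307.5 and 312 FPKM in Ctrl+FF mice 1 to 4 (313 ± 8.79, SD, n = 4) and 489.9, 360.6, 402 and 515 FPKM in B2D+FF mice 1 to 4 (442 ± 72.8, SD, n = 4). All 4 B2D+FF livers lay above all Ctrl+FF livers, as did 7.82% of all genes. The log2 difference was 0.48 (SE 0.126, 95% interval 0.20 to 0.76), with an unadjusted p of 0.00393 and an adjusted p of 0.0645 (limma, 11878 genes tested). Without B2D+FF mouse 2 the difference was 0.57 and passed, with an adjusted p of 0.0287 (limma), and 4 other settings moved it past the threshold too. Over the 8 alternatives with all libraries its adjusted p ran from 0.0291 to 0.423, the highest without a filter on low values.

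Cyp4a14 read 5979.7, 6140, 5131 and 6484 FPKM in Ctrl+FF mice 1 to 4 (5934 ± 575, SD, n = 4) and 7498, 5729.8, 6914 and 8448 FPKM in B2D+FF mice 1 to 4 (7147 ± 1137, SD, n = 4). B2D+FF mouse 2 was the liver within the Ctrl+FF range, and the other three lay above it. The log2 difference was 0.26 (SE 0.146, 95% interval -0.070 to 0.59; adjusted p = 0.346, limma).

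Cyp4a10 and Cyp4a32 showed no difference beyond the spread between mice under fenofibrate. Cyp4a10 read 4464, 4219.7, 3891 and 4242 FPKM in Ctrl+FF mice 1 to 4 (4204 ± 236, SD, n = 4) and 4079.9, 2501, 4249 and 4932 FPKM in B2D+FF mice 1 to 4 (3940.4 ± 1028, SD, n = 4). B2D+FF mouse 2 was the lowest of the 8 livers. The log2 difference was -0.14 (SE 0.197, 95% interval -0.58 to 0.31; adjusted p = 0.740, limma), and without that mouse it was 0.069. Cyp4a32 read 194.2, 196.5, 210.7 and 189.1 FPKM in Ctrl+FF (198 ± 9.28, SD, n = 4) and 211.3, 133.7, 212.2 and 238 FPKM in B2D+FF (199 ± 45.1, SD, n = 4), again with mouse 2 lowest. Its log2 difference was -0.022 (SE 0.168, 95% interval -0.40 to 0.36; adjusted p = 0.958, limma), and 0.16 without that mouse.

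Among the 4 genes, 0 passed under fenofibrate, beside 4.45% of all genes, and Cyp4a31 had an unadjusted p under 0.05, beside 21.2% of all genes (limma). The members' median log2 difference was 0.12 against 0.013 over all genes. The summed FPKM was 10945, 10882, 9540.4 and 11227 in Ctrl+FF mice 1 to 4 and 12279, 8725, 11777 and 14133 in B2D+FF mice 1 to 4. The B2D+FF sums of mice 1, 3 and 4 were above all controls and that of mouse 2 was below them, for a log2 difference of 0.12 (exact permutation p = 0.429). It fell to 0.024 without B2D+FF mouse 4 and reached 0.26 without B2D+FF mouse 2. The sum of the 3 copies differed by -0.079 (exact permutation p = 0.886).

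The share of Cyp4a31 among the copies was tested after its values had been seen. Its FPKM was 6.88% to 7.90% of that of Cyp4a10 in Ctrl+FF and 9.46% to 14.4% in B2D+FF. The log2 ratio of Cyp4a31 to Cyp4a10 was higher in B2D+FF by 0.62 with no overlap (exact permutation p = 0.0286, adjusted p = 0.0714). Here too the share of other gene ratios with such a gap was not counted. The ratio of Cyp4a32 to Cyp4a10 differed by 0.11 (exact permutation p = 0.229, adjusted p = 0.457), with 4.35% to 5.42% in Ctrl+FF and 4.83% to 5.35% in B2D+FF. Without fenofibrate the log2 differences were 0.043 for Cyp4a31 (exact permutation p = 0.873) and 0.13 for Cyp4a32 (exact permutation p = 0.659).

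The diet difference with FF minus that without FF was tested as a contrast over all 18 libraries. It was -0.40 for Cyp4a14 (SE 0.231, 95% interval -0.88 to 0.090; adjusted p = 0.509, limma), -0.28 for Cyp4a10 (adjusted p = 0.674, limma), -0.30 for Cyp4a32 (adjusted p = 0.786, limma) and 0.29 for Cyp4a31 (adjusted p = 0.797, limma). Of the 4 genes, 0 passed this test or had an unadjusted p under 0.05, beside 0.228% and 11.9% of the 11862 genes tested. The intervals, which span 0 for each gene, leave room for differences of 0.88 on the log2 scale for Cyp4a14 and of 1.10 for Cyp4a31.

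Levels with and without fenofibrate are given side by side. The mean of Ctrl+FF was 1.80 times that of Ctrl for Cyp4a10, 1.77 times for Cyp4a14, 2.64 times for Cyp4a32 and 4.65 times for Cyp4a31. Every Ctrl+FF liver lay above every Ctrl liver for each gene. On the deficient diet the ratios of B2D+FF to B2D were 1.51 for Cyp4a10, 1.37 for Cyp4a14, 2.11 for Cyp4a32 and 5.29 for Cyp4a31, with 3, 3, 3 and 4 of 4 B2D+FF livers above all B2D livers. The share of all genes with such separation between the tables was not counted, so these counts of livers have no background beside them. On 1 scale for both tables, reads per kilobase over the total of counted reads, the Cyp4a31 ratios were 4.68 and 5.27 and that of the Ctrl+FF sum to the Ctrl sum was 1.84. Ordered by mean, the groups ran Ctrl, B2D, Ctrl+FF and B2D+FF for Cyp4a14, Cyp4a31 and Cyp4a32, and Ctrl, B2D, B2D+FF and Ctrl+FF for Cyp4a10. Neighbouring groups in this order overlapped throughout for Cyp4a14 and Cyp4a10. For Cyp4a31 the first 2 groups overlapped and no later neighbours did, and for Cyp4a32 only B2D and Ctrl+FF were apart. The summed hepatocyte markers were lower in the FF tables, as given above, and their part in these ratios was not tested.

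Around their group means, the 4 genes varied together from mouse to mouse to different degrees. Over all 18 libraries the correlation of log2 deviations was 0.668 between Cyp4a10 and Cyp4a14, 0.649 between Cyp4a10 and Cyp4a31, 0.601 between Cyp4a10 and Cyp4a32 and 0.654 between Cyp4a31 and Cyp4a32. Cyp4a14 and Cyp4a32 were the least alike at 0.0864, with -0.0790 in the 10 libraries without FF and 0.698 in the 8 with FF. B2D+FF mouse 2 was the lowest of its group for both genes (5730 and 134 FPKM), and its part in the 0.698 was not tested. The points share their library and its scaling, and copies may share reads. Of 4280 protein-coding genes with a mean of at least 5 FPKM in both tables, those whose deviations followed the summed Cyp4a level most closely were Ephx2 (r = 0.922), Etfdh (r = 0.919), Rbbp7 (r = 0.909), Hsdl2 (r = 0.905) and Rnf6 (r = 0.897), where the median gene had r = 0.0744. Ephx2 encodes soluble epoxide hydrolase, Etfdh the flavoprotein that passes electrons from fatty acid oxidation to coenzyme Q, Rbbp7 a histone-binding protein, Hsdl2 a peroxisomal dehydrogenase-like protein and Rnf6 a ubiquitin ligase. Etfdh had r = 0.894 without FF and 0.955 with FF, whereas Por had 0.166 and 0.947. Ppara itself had r = 0.404 over the 18 libraries.

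The other Cyp4 genes that passed the test were all lower on the deficient diet. Of 16 such genes, 8 could be tested without FF, of which 3 fell and 0 rose, with a median log2 difference of -0.54. Cyp4a12a and Cyp4a12b, neighbours in the same cluster that encode the omega-hydroxylases typical of male mice, fell by 1.76 (adjusted p = 0.0274) and by 1.73 (adjusted p = 0.00717, limma). Cyp4a12a had a mean of 98.1 FPKM in Ctrl and 31.8 in B2D, and Cyp4a12b had 63.6 and 20.4. These are near-identical copies (98.49% coding identity, 32.08% of 150-base windows shared), so their single values are uncertain. Cyp4f15, of the Cyp4f subfamily that acts on fatty acids and leukotrienes, fell by 0.57 (adjusted p = 0.0256, limma). Not past the threshold were Cyp4f14 at -0.56 (adjusted p = 0.216), Cyp4v3 at -0.52 (adjusted p = 0.0865, or 0.0347 with all 4 groups in 1 fit), Cyp4f13 at -0.15, Cyp4f17 at 0.050 and Cyp4b1 at 0.10 (limma). In this comparison 1.94% of all genes were called lower. With 1 library left out, Cyp4a12b passed in all 10 fits, whereas Cyp4a12a missed the threshold in 6 of them and Cyp4f15 in 3 (adjusted p up to 0.0773 for both, limma).

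With fenofibrate, 2 of 9 tested Cyp4 genes outside the members fell and 0 rose, where 2.21% of all genes fell and 2.24% rose (263 and 266 genes, or 366 and 223 after rescaling to 1 upper quartile). Cyp4f14 fell by 1.22 (from 9.31 to 3.77 FPKM, adjusted p = 0.0413), and Cyp4a12a fell by 0.51 (from 173 to 120.3 FPKM, adjusted p = 0.0492, limma). Cyp4a12b was at -0.50 (adjusted p = 0.0577), Cyp4f17 at -0.45, Cyp4f15 at -0.30, Cyp4v3 at -0.13, Cyp4b1 at -0.11, Cyp4f13 at -0.096 and Cyp4f16 at -0.016. With 1 library left out, Cyp4a12a passed in 1 of 8 fits and Cyp4f14 in 2 (adjusted p up to 0.138 and 0.116, limma). Fitting all 4 groups together also ended the Cyp4a12a call (adjusted p = 0.481, limma), and Cyp4a12b passed in 4 of 9 other settings (adjusted p from 0.0322, limma). The diet differences of Cyp4a12a and Cyp4a12b with FF minus those without FF were 1.25 and 1.23 (adjusted p = 0.285 and 0.132, limma). That of Cyp4a12b passed with array weights (adjusted p = 0.0179) and without B2D mouse 3 (adjusted p = 0.00507, limma).

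**Figure D4:**
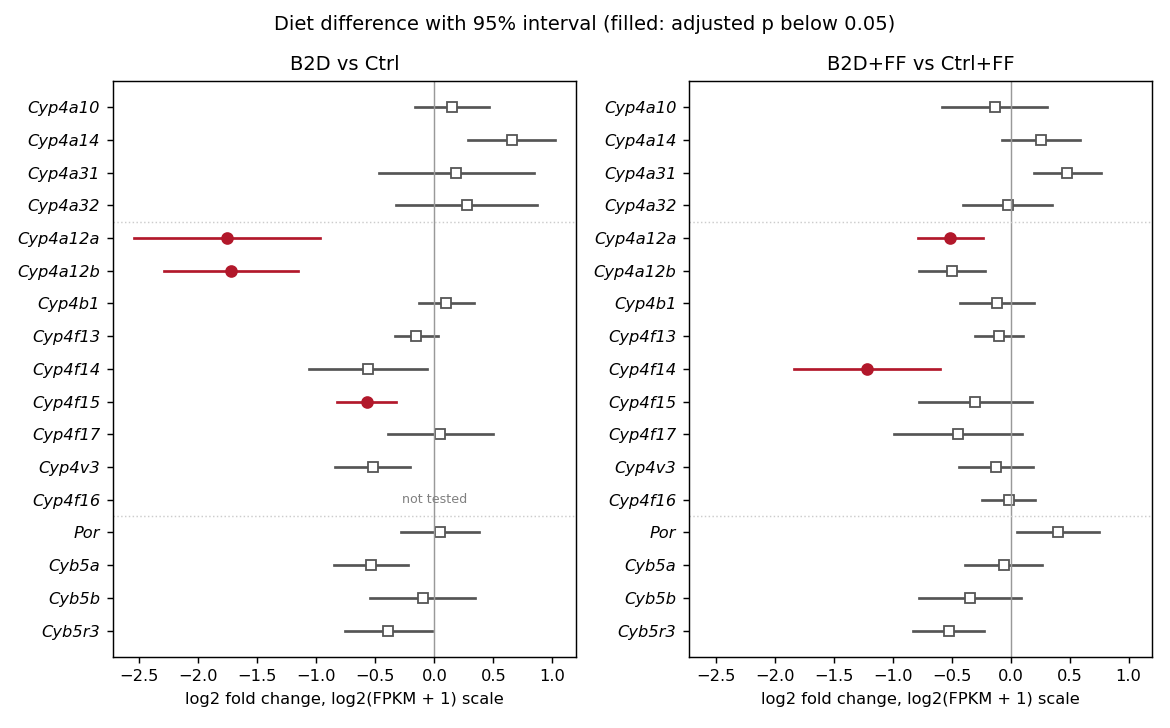
Log2 fold change on the log2(FPKM + 1) scale (x axes) with 95% intervals (lines) for the 4 members (top), the other tested Cyp4 genes (middle) and the electron donors (bottom), for B2D against Ctrl (left) and B2D+FF against Ctrl+FF (right). Filled points passed an adjusted p of 0.05, which 0 of the 4 members did, and the filled points, Cyp4a12a, Cyp4a12b and Cyp4f15 on the left and Cyp4a12a and Cyp4f14 on the right, lie below 0.

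The genes listed as electron donors, Por, Cyb5a, Cyb5b and Cyb5r3, held 0 of 4 calls in each comparison (limma), where 2.7% of all genes were called without FF and 4.45% with FF. Por, like Cyb5r3 a flavoprotein, averaged 255 ± 43.5 FPKM on control diet and 263 ± 46.4 FPKM on deficient diet (SD, n = 5 each). That was a log2 difference of 0.048 (95% interval -0.28 to 0.38, adjusted p = 0.894, limma). With FF the averages were 279.8 ± 34.3 and 374 ± 67.7 FPKM (SD, n = 4 each), a difference of 0.40 (95% interval 0.055 to 0.75; adjusted p = 0.174, limma). Cyb5a, the cytochrome b5 of the endoplasmic reticulum, was at -0.54 without FF (adjusted p = 0.0742) and -0.058 with FF. Cyb5r3, the flavoprotein that reduces cytochrome b5, was at -0.39 (adjusted p = 0.245) and -0.53 (adjusted p = 0.0582, limma). Cyb5b, the cytochrome b5 of the outer mitochondrial membrane, was at -0.10 and -0.35. The 0 calls held for the setting used here. With FF, Cyb5r3 passed in 4 of 9 other settings (adjusted p from 0.0195) and Por passed without B2D+FF mouse 2 (adjusted p = 0.0453), and without FF Cyb5a passed with all 4 groups in 1 fit (adjusted p = 0.0294, limma).

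Of the alcohol and aldehyde dehydrogenases that follow omega-hydroxylation, 7 of 8 listed genes were tested in each comparison, and Adh4 was the 1 gene called (background 2.7% and 4.45% of all genes). Adh4, an alcohol dehydrogenase that oxidizes long-chain omega-hydroxy acids and retinol, fell by 1.22 without FF (mean 76.8 FPKM against 32.4 FPKM, n = 5; adjusted p = 0.00494, limma). With FF it fell by 0.42 (29.8 ± 2.21 and 22.1 ± 2.40 FPKM, SD, n = 4; adjusted p = 0.0469, limma), a call that held in 1 of 8 fits with a library left out (adjusted p up to 0.137) and not with all 4 groups in 1 fit (adjusted p = 0.173, limma). Aldh3b1 was at -0.36 (adjusted p = 0.115) and Aldh9a1 at -0.31 (adjusted p = 0.178) without FF. With FF, Adh1 was at -0.25 (adjusted p = 0.211) and Aldh9a1 at 0.24 (adjusted p = 0.232, limma).

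Genes for the uptake and peroxisomal shortening of dicarboxylic acids gave 1 call among 25 tested without FF and 3 among 27 with FF, beside 2.7% and 4.45% of all genes, so that the count without FF was near the background. Amacr, a racemase of branched-chain acyl-CoAs, fell by 0.50 without FF (adjusted p = 0.0326, limma). Ehhadh, the bifunctional peroxisomal enzyme of dicarboxylic acid oxidation, went from 936 ± 250.1 to 1898 ± 756 FPKM (SD, n = 5), a log2 difference of 0.97 that did not pass (adjusted p = 0.0701, limma) but did in 4 of 9 other settings (adjusted p from 0.0215, limma). Nudt7, which cleaves coenzyme A in peroxisomes, was at -1.09 (adjusted p = 0.0742, limma) and passed in 4 of 9 (adjusted p from 0.0187, limma). With FF, the 3 called in this list were Nudt19, another coenzyme A diphosphatase (up 0.54, adjusted p = 0.0166), Acot5, a peroxisomal acyl-CoA thioesterase (up 0.77, adjusted p = 0.0403), and Abcd2, a peroxisomal fatty acyl-CoA transporter (up 0.38, adjusted p = 0.0485, limma). By an unadjusted limma p under 0.05, 3 genes of the list were higher and 5 lower with FF, beside 21.2% of all genes in either direction. With 1 library left out, the adjusted p of Amacr reached 0.0967, that of Nudt19 0.0593, that of Acot5 0.117 and that of Abcd2 0.149 (limma). With all 4 groups in 1 fit Abcd2 did not pass (adjusted p = 0.458, limma).

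The receptor and its partners gave 0 calls of 15 without FF and 1 with FF, counts near the background of 2.7% and 4.45% of all genes. Ppara was at -0.029 without FF (47.3 ± 3.29 FPKM in Ctrl, 46.7 ± 7.60 in B2D; adjusted p = 0.921) and at -0.30 with FF (adjusted p = 0.185, limma). Its dimer partner Rxra was at 0.033 and -0.12. Ppargc1a, a coactivator, was at 0.61 (adjusted p = 0.195) and 0.68 (adjusted p = 0.111), the corepressor gene Ncor1 at 0.24 without FF, and the Mediator gene Med1 at 0.23 without FF. Pparg, the related receptor of fat cells, rose by 0.42 with FF (1.43 to 2.26 FPKM, adjusted p = 0.0312, limma; up to 0.0971 with 1 library left out and 0.231 with all 4 groups in 1 fit). Among other reference targets of PPARα, 0 of 37 tested were called without FF, where 0.769% of all genes rose and 1.94% fell. Those with the smallest adjusted p were Pdk4, an inhibitory kinase of pyruvate dehydrogenase (1.19, adjusted p = 0.0687, or from 0.0368 in the 3 of 9 other settings where it passed), Ehhadh as given above, and Cpt1a, the carnitine palmitoyltransferase of mitochondrial fatty acid entry (0.33, adjusted p = 0.150). With FF, 3 of 38 rose and 1 fell, beside 2.24% and 2.21% of all genes. Fgf21, a fasting hormone, rose by 2.49 (adjusted p = 0.0137), Cidec, a lipid droplet protein, by 0.97 (adjusted p = 0.0187) and Acadl, the flavoprotein long-chain acyl-CoA dehydrogenase, by 0.51 (adjusted p = 0.0239), while Scd1, the stearoyl-CoA desaturase, fell by 1.74 (adjusted p = 0.0181, limma). Fgf21 passed with each library left out, and the adjusted p of the other three reached 0.0689, 0.0788 and 0.0647 (limma). With all 4 groups in 1 fit Cidec and Scd1 missed the threshold (adjusted p = 0.0820 and 0.117, limma). Across these lists, 0 genes passed the test of the difference between the diet effects, beside 0.228% of all genes. With array weights 5 passed, namely Cyp4a12b, Fgf21 (adjusted p = 0.0468), Adh4 (adjusted p = 0.0331), Amacr (adjusted p = 0.0219) and the acyl-CoA thioesterase gene Acot6 (adjusted p = 0.0331, limma). Acot6 also passed with an upper quartile scale, with voom and without B2D mouse 5 (adjusted p = 0.0392, limma). Its level was low, from a mean of 0.156 FPKM in Ctrl to 1.64 FPKM in Ctrl+FF. Without B2D mouse 3, Cyp4a12b (adjusted p = 0.00507) and Adh4 (adjusted p = 0.0405, limma) passed.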

How the data were processed

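Total liver RNA was made into mRNA libraries, sequenced as 150-base paired ends, aligned with STAR to mm10 and counted per gene with featureCounts, as the methods state; the versions of these tools are not given in the sources used here. The authors deposited FPKM per library (called RPKM in the methods) in 1 table per experiment, each scaled on its own. Every value was a whole multiple of 1 read's worth (100% within 0.01), so reads were recovered. The library size behind the deposited values was not the total of counted reads. It followed median-of-ratios size factors within each experiment. It ran from 0.936 (B2D+FF mouse 4) to 1.11 (B2D mouse 2) times that total.

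The deposited FPKM were not rescaled. For genes averaging at least 0.5 FPKM, log2(FPKM + 1) was fitted by limma 3.58.1 (R 4.3.3, trend) with Benjamini-Hochberg adjustment and a threshold of 0.05, in place of the count test of the methods. Such fold changes understate those of low genes. Sums and ratios were compared by two-sided exact permutation tests. Mice are numbered in sample order within a group, and p-values set the difference between groups against the spread between mice. Alternatives were a pseudocount of 0.1, other filters, scalings, weights and fits, voom on recovered reads, summed copies, and each library left out. Genes named outside the 4 members are all tested Cyp4 and electron donor genes, Ppara, Rxra, genes called in the other lists (or the 3 with the smallest adjusted p), and the 5 most similar in pattern; 1 gene that this rule names is not reported here. Members and lists were chosen with earlier results of these data known. Depth (15320729 to 21898502 reads) gave each member at least 1340 reads per library. Sequences were read from GENCODE M21 on GRCm38.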

Additional observations from a re-analysis of the deposited data

How the results depend on the processing

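The members' calls depended on the setting. Without FF, 1 of 4 members passed in place of 0 with a mean of at least 5 FPKM, with quantile normalization, with array weights, with voom on recovered reads and with all 4 groups in 1 fit. That gene was Cyp4a14, at 0.65, 0.78, 0.68, 0.66 and 0.65 (adjusted p = 0.0405, 0.0361, 0.0320, 0.0415 and 0.0175, limma). With FF, 1 of 4 passed with the first 4 of these settings, Cyp4a31 at 0.48, 0.46, 0.51 and 0.48 (adjusted p = 0.0468, 0.0339, 0.0291 and 0.0473, limma). The causes were not tested, except that the higher filter tests fewer genes.

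With 1 library left out, the member count was 0 to 1 in each table. It was 1 without Ctrl mouse 5 (Cyp4a14, range 0.56 to 0.79) and without B2D+FF mouse 2 (Cyp4a31, range 0.40 to 0.57). The Cyp4a14 to copies ratio with FF ranged from 0.25 to 0.39, with p = 0.0571 in each exact permutation test, which is as low as 3 against 4 can go. Small differences changed sign. With FF these were Cyp4a10 (-0.26 to 0.069), Cyp4a32 (-0.12 to 0.16), the summed copies (-0.20 to 0.11), Cyp4f16 (-0.078 to 0.024) and Cyb5a (-0.17 to 0.054). Without FF they were Cyp4a31 (-0.010 to 0.35), its ratio to Cyp4a10 (-0.090 to 0.18), Cyp4f17 (-0.13 to 0.16), Por (-0.048 to 0.12), Cyb5b (-0.23 to 0.042), Ppara (-0.090 to 0.048) and Rxra (-0.044 to 0.10). Between experiments it was Cyp4f13 (-0.0076 to 0.094).

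Quantile normalization turned Cyp4a10 with FF to 0.16, Cyb5b to 0.0074 and Ppara to 0.068 without FF, Cyp4f16 with FF to 0.037 and the Cyp4f13 contrast to -0.042. It left 0 calls among the dicarboxylate genes without FF and 1 among the other Cyp4 genes with FF. Array weights turned Cyp4a32 to 0.068 and Cyp4f16 to 0.0036 with FF. An upper quartile scale turned Ppara to 0.0020 without FF and the Cyp4f13 contrast to -0.034. None of these passed the threshold, and their causes were not tested.

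Over all genes, 224 lower and 89 higher calls without FF became 49 and 18 with no filter and 444 and 287 with all 4 groups in 1 fit. With FF, 263 and 266 became 135 and 137 with no filter and 405 and 480 with array weights. For the contrast, 12 and 15 became 46 and 90 with array weights, 6 and 7 with voom and 8 and 8 with a pseudocount of 0.1. Single libraries moved these counts too. Without FF they ran from 72 and 26 without Ctrl mouse 4 to 235 and 97 without Ctrl mouse 3, and they were also lower without Ctrl mice 1 (116 and 37) and 2 (78 and 31) and B2D mice 2 (116 and 45) and 4 (108 and 40). With FF they ran from 93 and 82 without Ctrl+FF mouse 1 to 297 and 299 without B2D+FF mouse 3, with 112 and 76 without Ctrl+FF mouse 2, 130 and 112 without Ctrl+FF mouse 3, 145 and 157 without B2D+FF mouse 1 and 158 and 140 without B2D+FF mouse 4. The contrast had 28 and 38 without B2D mouse 1, 16 and 26 without Ctrl mouse 5 and 7 and 10 without Ctrl+FF mouse 2. The share of all genes called moves with them. With no filter, the calls of Amacr, Cyp4a12a and Cyp4f15 without FF were lost (adjusted p = 0.0567, 0.105 and 0.0535, limma), as were those of Abcd2, Acadl, Acot5, Adh4, Cidec, Cyp4a12a, Cyp4f14, Pparg and Scd1 with FF (adjusted p from 0.0530 for Acadl to 0.110 for Cyp4f14, limma). Acsl1, a dicarboxylate list gene named after its values were seen, was lower with FF on the deficient diet (470.1 FPKM in Ctrl+FF, 299.8 in B2D+FF). It passed with FF in 6 of 9 settings (adjusted p from 0.0196, limma), against 0.0520 as tested.

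No paired analysis was possible because the labels give no replicate numbers that the diet groups share. Depth was no limit for the members, which had at least 1340 reads in each library, but 8 of 16 other Cyp4 genes were too low to test without FF. Read sharing among the copies, and group sizes of 4 and 5 mice, limit how finely single copies can be compared.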
